A study of Mus musculus with 20 samples.

Results

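The genes described here are 35 nuclear genes of the respiratory chain and ATP synthase, read in hearts of mice with and without a myocardial deletion of Creld1. They were chosen by symbol from 26440 rows of a normalized expression table, as subunits of complexes II to V and the inhibitor of the ATP synthase. Complex II gave 4 genes, complex III 9, complex IV 6 and complex V 15, and Atpif1 is the inhibitor. All 35 passed a filter of at least 10 normalized units in at least 3 libraries, as did 18125 genes in all.

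RNA was sequenced from 20 heart libraries of C57BL/6N mice in 6 groups. The groups were MyHC-Creld1 KO (n = 4) and wild-type (n = 4) whole hearts at E13.5 (an embryonic day), MyHC-Creld1 KO (n = 3) and wild-type (n = 3) atria at postnatal day 3 (P3), and MyHC-Creld1 KO (n = 3) and wild-type (n = 3) ventricles at P3. The atria and ventricles of a replicate number came from the same pup, and a KO and a wild-type animal of the same number were littermates prepared on one date. The E13.5 hearts came from 3 litters: replicates 2 and 3 of both genotypes are from the same litter, so that their split into 2 pairs is arbitrary. No other allele or agent is named for any group. The deletion is labelled MyHC and myocardium-specific, so that other cells of the heart keep Creld1 and contribute to each library. Libraries were made by the SMART-Seq2 protocol, which amplifies full-length cDNA from small amounts of RNA.

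Complexes II, III and IV pass electrons from succinate and other substrates to oxygen in the inner mitochondrial membrane, and complexes III and IV pump protons as they do so. Complex V, the ATP synthase, lets the protons back through a rotating ring of c subunits and makes ATP. Complex II is encoded wholly in the nucleus, whereas complexes III, IV and V combine nuclear subunits with a few made inside the mitochondrion. Heart muscle around birth turns from glycolysis towards oxidative metabolism and builds up these complexes.

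The 3 genes Atp5g1, Atp5g2 and Atp5g3 encode the same mature c subunit behind different import sequences. The last 60 coding bases of each, from the GENCODE M21 transcripts of build GRCm38 (mm10), are shown because similar copies can share reads. Capitals mark the 17 positions at which the 3 genes are not all alike. Atp5g1 lies on chromosome 11, Atp5g2 on chromosome 15 and Atp5g3 on chromosome 2.
Atp5g1: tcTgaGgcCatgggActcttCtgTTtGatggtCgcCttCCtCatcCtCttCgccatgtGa
Atp5g2: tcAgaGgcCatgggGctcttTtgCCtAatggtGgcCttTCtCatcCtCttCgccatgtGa
Atp5g3: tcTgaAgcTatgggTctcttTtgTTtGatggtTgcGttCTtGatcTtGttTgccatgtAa
Over the last 228 coding bases, Atp5g1 and Atp5g2 were alike at 194 (85.1%), Atp5g1 and Atp5g3 at 182 (79.8%), and Atp5g2 and Atp5g3 at 179 (78.5%). The longest run shared in register was 21 bases, between Atp5g1 and Atp5g2.

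Many nuclear genes of the respiratory chain are known targets of NRF1, of ETS factors such as GABPA and of estrogen-related receptors. A promoter window from RefSeq, build GRCm38.p6, reaching 250 bases before to 50 after the start, was matched by symbol for 28 of the 35 genes. The NRF1 motif, GCGCA and GCGC with any base between them, was present on either strand in 9 of these 28 windows (32.1%), against 4.78% of all 27025 windows. The ETS motif CCGGAAG was present in 9 (32.1%), against 9.12% of all windows. The motif NAAGGTCA of estrogen-related receptors was present in 6 (21.4%), against 4.64%. The SP1 motif GGGCGG was present in 9 (32.1%), against 35.9%, and AAGATGGCG, the YY1 motif, in 1 (3.57%), against 1.49%. No matches of different motifs overlapped in the members' windows. Sdha and Sdhd, subunits of complex II, are shown because they had the most NRF1 and ETS matches in the 100 bases before the start. Both were higher in P3 ventricles than in E13.5 hearts in both genotypes. So were Uqcrfs1 and Cox5b, whose windows held no match of any of these motifs. A link between matches and expression was not tested. Sdha and Sdhd are each printed as the 100 bases before the start, on the minus strand, with the matches in capitals. The Sdha stretch is chr13:74350241-74350340 and holds 3 NRF1 matches, and the Sdhd stretch is chr9:50603850-50603949 and holds 1 NRF1 and 1 ETS match.
Sdha: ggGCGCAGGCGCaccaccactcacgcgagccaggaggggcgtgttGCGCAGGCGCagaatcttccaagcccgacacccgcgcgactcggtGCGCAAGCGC
Sdhd: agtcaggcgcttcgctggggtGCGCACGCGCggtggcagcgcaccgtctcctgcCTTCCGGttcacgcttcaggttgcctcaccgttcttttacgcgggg
A match describes these letters and was not tested as a binding site.

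Estimated totals were 5138353 to 20669361 reads per library, and the member with the fewest reads, Atp5g2, still had 84 of them in its lowest library. Creld1 itself had normalized signal values of 70.9, 7.48, 38.4 and 4.64 in KO and 65.96, 92.2, 60.8 and 34.0 in wild-type E13.5 hearts. In atria it had 23.1, 26.6 and 82.4 in KO and 105, 21.6 and 146 in wild-type libraries. In ventricles it had 19.9, 59.3 and 51.9 in KO and 62.2, 59.7 and 130 in wild-type libraries. KO and wild-type values overlapped at E13.5, where the library labelled KO replicate 1 had more than 3 wild-type hearts, and in atria, where the library labelled wild-type replicate 2 was lowest and that labelled KO replicate 3 lay above it. Groups are named by their labels throughout. Which exons are deleted is not given in the sources used here, and reads from the rest of the gene would still count. The 10 atrial markers summed to 164138 to 454589 units in KO and 86599 to 174600 in wild-type atria, against 7386 to 35435 in KO and 3813 to 9892 in wild-type ventricles. The tissue labels held, although among ventricles the sums reached higher in KO than in wild-type libraries, with overlapping ranges. The wild-type atrial library of pup 2 also carried the ventricular light chain gene Myl2 at 9242 units, whereas no other wild-type atrial library exceeded 40.8. The KO and wild-type atrial libraries of replicate 3 stood apart from all others: their log2 profiles correlated at 0.93 with each other and at 0.72 to 0.84 with the remaining libraries.

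**Figure D1:**
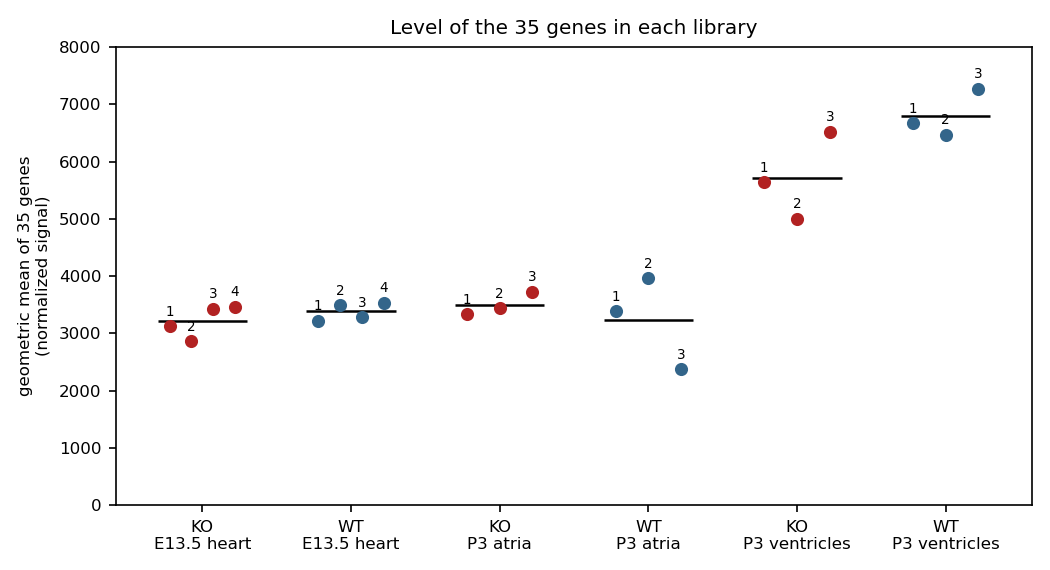
Geometric mean normalized signal of the 35 genes in each of the 20 libraries, grouped by stage, tissue and genotype with KO left of wild-type (points, libraries). Ventricles lie highest, from 5000 to 6519 in KO and 6467 to 7272 in wild-type libraries.

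The genes stood at about the same level in KO and wild-type hearts at E13.5, and were higher in P3 ventricles than in any other group. Their geometric mean was 3123, 2864, 3429 and 3465 units in the 4 KO hearts at E13.5, and 3216, 3492, 3281 and 3533 in the 4 wild-type hearts. In P3 atria it was 3337, 3435 and 3724 in KO and 3382, 3957 and 2367 in wild-type libraries. In P3 ventricles it was 5639, 5000 and 6519 in KO and 6664, 6467 and 7272 in wild-type libraries. All ventricular libraries lay above every other library, and the KO ventricles overlapped the wild-type ventricles in 1 library. These are bulk samples, in which fewer cells of a type and less RNA per cell cannot be told apart.

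Divided by transcript length, the levels in P3 ventricles spanned a wide range among genes of the same complex. Per kilobase, the small membrane subunit Atp5k of the ATP synthase had 33635 ± 1816 units in KO and 39888 ± 5587 in wild-type ventricles (SD, n = 3 each). Cox7c, a small subunit of complex IV, had 36454 ± 931 in KO and 38241 ± 2486 in wild-type ventricles. In KO ventricles Cox7c lay above Atp5k by more than either SD, and in wild-type ventricles these neighbours at the top did not differ beyond their spread. The catalytic beta subunit Atp5b had 8152 ± 861 in KO and 10096 ± 396 in wild-type ventricles. The flavoprotein Sdha, which oxidizes succinate, had 2668 ± 309 per kilobase in KO and 3563 ± 382 in wild-type ventricles. Sdhc, a membrane anchor of complex II, was lowest, at 290 ± 47.0 in KO and 306 ± 63.8 in wild-type ventricles, next to Atp5g2 at 363 ± 114 in KO and 403 ± 28.6 in wild-type ventricles. The transcripts used for length are annotated ones, and the isoforms present were not measured.

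In P3 ventricles, the 35 genes were slightly but broadly lower in KO than in wild-type animals, and no single gene passed the test. The log2 fold change (KO over wild-type, on log2 of the value plus 1) was negative for 34 of the 35 genes, against 50.9% of all genes, with a median of -0.23, against -0.01 over all genes. It ran from -0.56 to 0.03, and the single positive gene was Atpif1. The 35 genes share the same libraries and are not independent, so a shift of 1 library can move many of them together. Over all groups, the median log2 level of the 35 genes in a library had a pooled SD between replicates of 0.27. This SD includes the atrial libraries. No member had an adjusted p below 0.05 by limma with Benjamini-Hochberg adjustment over 18125 genes, and neither did any other gene (0%). At an unadjusted p below 0.05, 1 member was lower, against 1.91% of all genes, and none was higher, against 1.99%. The KO libraries lay below all wild-type libraries for 10 of the 35 genes, against 5.56% of all genes: Sdha, Uqcrc2, Uqcrfs1, Uqcrq, Cox5b, Cox6c, Atp5b, Atp5c1, Atp5g1 and Atp5h.

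The Rieske iron-sulfur protein Uqcrfs1, which passes electrons to cytochrome c1 in complex III, had 3187, 3427 and 4398 units in KO ventricles, against 4634, 5710 and 5814 in wild-type ventricles. All KO values lay below all wild-type values, and the log2 fold change was -0.56 (SE 0.24, unadjusted p = 0.0303 and adjusted p = 1, limma). Uqcrc2, a core protein of complex III, had 3471, 3270 and 3817 in KO against 4247, 4427 and 4989 in wild-type ventricles, a log2 difference of -0.37 (SE 0.24, unadjusted p = 0.142, limma). The groups were again apart.

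Sdha had 7584, 6926 and 8700 units in KO ventricles, against 9055, 10932 and 11015 in wild-type ventricles. Its log2 fold change was -0.42 (SE 0.29, unadjusted p = 0.161, limma), and the KO values were all the lower ones. In complex IV, Cox5b, a subunit that binds zinc, had 7050, 6039 and 7737 in KO against 8301, 7890 and 8248 in wild-type ventricles. Cox5a, another nuclear subunit of the complex, had 6106, 6701 and 8400 in KO and 7709, 8045 and 12704 in wild-type ventricles, and here the groups overlapped.

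In the ATP synthase, the stalk subunit d, Atp5h, had 8724, 7874 and 9203 units in KO against 10865, 11257 and 13339 in wild-type ventricles, a log2 fold change of -0.46 (SE 0.26, unadjusted p = 0.0963, limma). The catalytic-head subunit alpha, Atp5a1, had 11995, 12739 and 16187 in KO against 15645, 15769 and 20751 in wild-type ventricles, with a log2 fold change of -0.35 (SE 0.25, unadjusted p = 0.177, limma). Atp5h did not overlap between the groups, whereas 1 KO library of Atp5a1 lay above 2 wild-type libraries. Atpif1, which blocks the ATP synthase from running backwards, had 9216, 7401 and 8754 in KO and 8831, 8450 and 7550 in wild-type ventricles, with full overlap and a log2 fold change of 0.03. By complex, the median log2 fold change was -0.19 for complex II, -0.30 for complex III, -0.18 for complex IV and -0.26 for complex V.

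**Figure D2:**
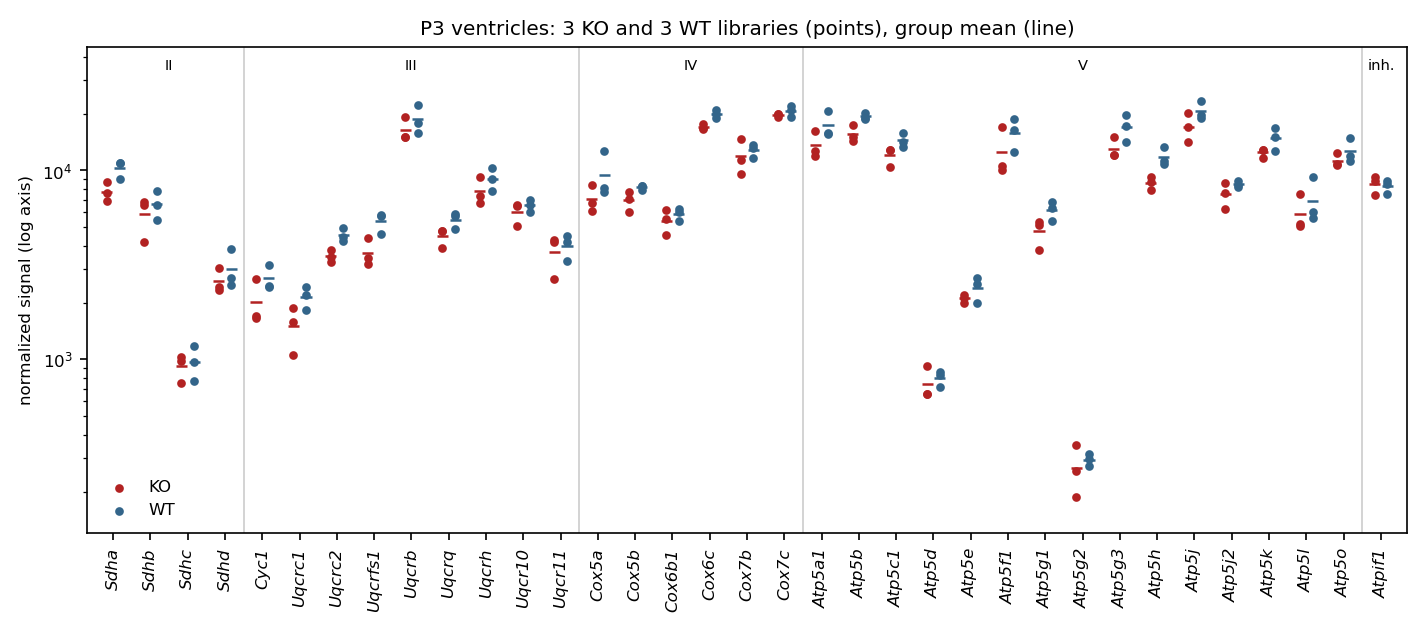
Normalized signal in P3 ventricles for all 35 members, ordered by complex, on a log axis, with KO left of wild-type (points, libraries; short horizontal lines, means). Uqcrfs1, Uqcrc2, Sdha and Atp5h have all 3 KO libraries below all 3 wild-type libraries, and Atpif1 overlaps.

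The difference ran the same way in each littermate pair. KO ventricles were lower than their wild-type littermates for 34, 33 and 28 of the 35 genes in pairs 1, 2 and 3, with median log2 differences of -0.24, -0.36 and -0.21. In 26 genes (74.3%) the KO value was lower in every pair, against 12.99% of all genes. The genes of a pair share its libraries, so these counts are not independent observations. The 9 exceptions were Sdhb, Sdhc, Uqcr11, Cox7b, Cox7c, Atp5d, Atp5e, Atp5g2 and Atpif1. Leaving out each ventricular library in turn kept the median between -0.32 and -0.16. Without both atrial libraries of replicate 3, which enter the shared estimate of the spread but not the ventricular means, 7 members were lower at an unadjusted p below 0.05, against 2.62% of all genes: Sdha, Uqcrc1, Uqcrfs1, Atp5a1, Atp5b, Atp5g3 and Atp5h. None had an adjusted p below 0.05 (0% of all genes lower; lowest 0.686, Uqcrfs1, limma).

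Other genes of mitochondrial energy metabolism were read in the same comparison, in which 50.9% of all genes were negative, and none passed the test. Of 36 nuclear genes of complex I, 35 were negative, with a median log2 fold change of -0.21. All 14 genes of the tricarboxylic acid cycle were negative (median -0.26), as were all 13 mitochondrially encoded subunits (median -0.29). So were all 7 genes of nucleotide and phosphate carriers, porins and mitochondrial creatine kinase (median -0.36). Among 34 tested assembly factors of complexes II to V, 24 were negative (median -0.13), and among 11 genes of cytochrome c and coenzyme Q synthesis 9 were negative (median -0.72). Of 15 regulators of mitochondrial genes, 9 were negative (median -0.07), and of 12 genes of mitochondrial import, structure and nucleoids 8 were negative (median -0.08). Mitochondrially encoded transcripts made up 36.3% to 37.3% of the signal in KO and 38.5% to 41.3% in wild-type ventricles.

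Cell type markers were compared beside these values, and their part in the difference was not tested. The 12 cardiomyocyte markers summed to 283803 to 332700 units in KO and 291018 to 342970 in wild-type ventricles; 7 were negative and 5 positive, with a median of -0.07 and none at 0. All 9 erythroid markers were positive (median 0.58), with sums of 17653 to 30961 in KO and 10362 to 25487 in wild-type ventricles. Of these, 1 was at 0 in 1 KO library, and 1 or 2 were at 0 in each wild-type library, while the adult globin genes were present throughout. Of 12 fibroblast markers 8 were positive (median 0.13), with none at 0 and sums of 54432 to 69639 in KO and 52775 to 57148 in wild-type ventricles. The summed atrial markers, given above, reached higher in KO than in wild-type ventricles, with overlap. Of these markers, Myl7 had 1013, 1256 and 669 units in KO and 571, 537 and 809 in wild-type ventricles. Sln had 249, 305 and 156 in KO and 267, 171 and 302 in wild-type ventricles. None of these marker genes passed the test.

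At E13.5, KO and wild-type hearts were not separated by any of the 35 genes. The log2 fold change was negative for 25 of the 35, against 48.6% of all genes, with a median of -0.06. The median ran from -0.04 without KO replicate 2, where 19 genes were negative, to -0.13 without KO replicate 4, where 26 were. It was -0.11 without wild-type replicate 1 or KO replicate 3, and 30 genes were negative without wild-type replicate 3. No member had an adjusted p below 0.05 (0% of all genes) and none an unadjusted p below 0.05 (1.73% of all genes lower and 2.39% higher, limma). No member had groups that did not overlap, against 1.25% of all genes lower and 1.3% higher. Sdha had 3515, 3213, 3223 and 4401 units in KO and 3437, 4596, 3347 and 3379 in wild-type hearts. Uqcrfs1 had 1815, 1453, 1722 and 1885 in KO and 1513, 2196, 1896 and 2307 in wild-type hearts, with a log2 fold change of -0.19. The groups overlapped in both genes. The 5 members of smallest unadjusted p were Atp5a1 (log2 fold change -0.26), the complex II anchor Sdhd (-0.27), Uqcrfs1, Atp5g2 (-0.31) and the complex III hinge protein Uqcrh (-0.22), all with an adjusted p of 1 by limma. In the 4 pairs, KO was lower for 18, 31, 18 and 20 genes, and only Uqcrh, Atp5e and Atp5j2 were lower in all 4 (8.57% of members, against 5.50% of all genes).

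In P3 atria, the sign of the KO difference turned on 1 littermate pair. Over all libraries 26 of the 35 genes were positive, against 49.8% of all genes, and the median log2 fold change was 0.15. In pairs 1 and 2, KO was lower for 19 and 28 genes (medians -0.01 and -0.19), and in pair 3 for 2 genes (median 0.61). Without both libraries of pair 3, 27 genes were negative and the median was -0.11, mostly through pair 2. Without the wild-type atrial library of pup 2, which carried Myl2 and had the highest level of the members among atria, 29 genes were positive (median 0.32). Without that of pup 3, 14 were positive (median -0.15). The direction in atria therefore depended on which library was left out. No member passed the test (0.0276% of all genes did), and no member had groups that did not overlap, against 3.99% of all genes lower and 3.92% higher.

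Atp5e, the epsilon subunit of the ATP synthase stalk, had 1422, 1723 and 2238 units in KO and 1262, 1646 and 771 in wild-type atria. It was the single member with an unadjusted p below 0.05 (log2 fold change 0.59, SE 0.27, unadjusted p = 0.0400, adjusted p = 0.907, limma), against 2.95% of all genes higher. The lowest and the highest of its 6 atrial values were both in replicate 3. Atpif1 had 5841, 6583 and 3729 in KO and 5046, 4665 and 2432 in wild-type atria, a log2 fold change of 0.44 with overlapping groups. The other 3 members of smallest p had log2 fold changes of 0.51 (Atp5g2), -0.35 (Sdha) and 0.53 (Atp5k), each with an adjusted p of 1 by limma. Higher in every pair were 5 genes, Sdhc, Atp5d, Atp5e, Atp5k and Atpif1 (14.3%, against 15.1% of all genes).

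**Figure D3:**
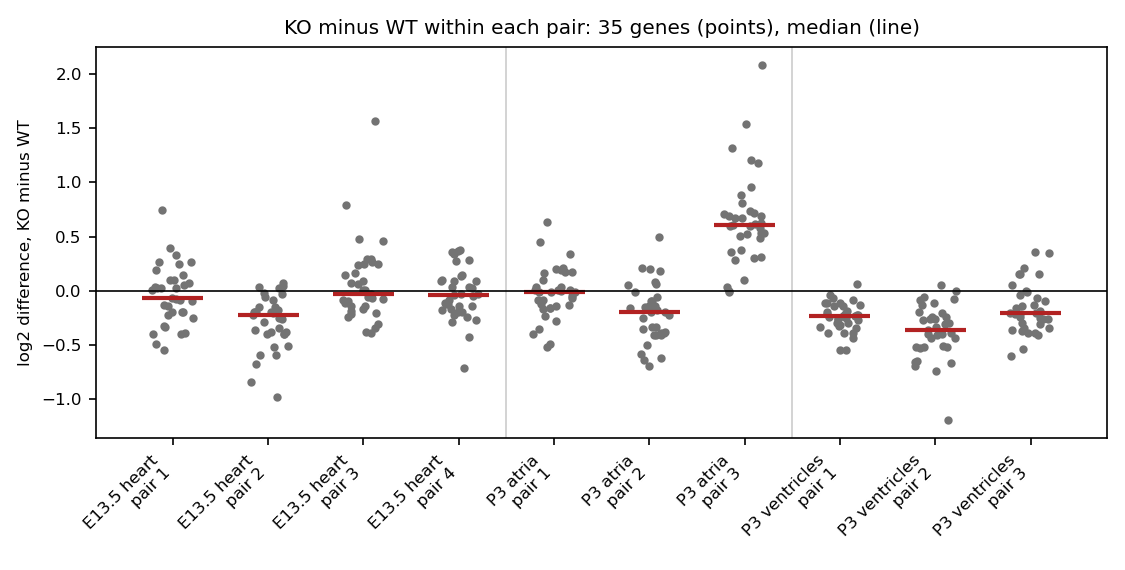
Log2 difference between the KO and the wild-type littermate for each of the 35 genes (points), by stage, tissue and pair; horizontal bars are medians. The medians are negative in all 3 ventricular pairs (-0.24, -0.36 and -0.21), and the third atrial pair stands at 0.61.

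The atrial libraries of replicate 3 differed from the other atria in both genotypes by a pattern that correlated with base composition. They also had less mitochondrially encoded signal, 3.55% in KO and 10.4% in wild-type, against 22.6% to 31.3% in the other atria. More genes were above 0 in them than in any other library, 23457 in KO and 22819 in wild-type. Relative to the mean of replicates 1 and 2, the log2 values of the members in replicate 3 ran from -1.93 to 2.61 in KO and from -2.84 to 2.63 in wild-type atria. Across the 35 genes this difference correlated with the GC content of the coding sequence (Pearson r = 0.70 and Spearman rho = 0.72 in KO, 0.68 and 0.72 in wild-type; across genes, which are not independent). With the GC content of the whole transcript the Pearson r over the members was 0.51 in both genotypes, and with log2 transcript length 0.45 in KO and 0.52 in wild-type atria. Over 14060 coding genes it was 0.43 in KO and 0.42 in wild-type atria for coding GC content, 0.52 in both for transcript GC content, and -0.12 in KO and -0.03 in wild-type atria for length. These genes share the library and its depth, and the part of base composition in the difference was not tested. Uqcrc1, a core protein of complex III, had 765, 807 and 4803 units in KO and 860, 703 and 4825 in wild-type atria. Cox7c had 11011, 13572 and 3203 in KO and 12112, 14099 and 1822 in wild-type atria. In both genotypes replicate 3 is the odd one, high for Uqcrc1 and low for Cox7c. These genes had the highest and the lowest difference of the 35 in both genotypes. Their coding sequences have 57.0% GC (Uqcrc1) and 49.5% GC (Cox7c), against a median of 52.6% over 14060 coding genes.

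The first 120 coding bases of the members with the lowest and the highest GC content of the coding sequence show the contrast, with G and C in capitals. Uqcrb (chromosome 13) has 42.9% GC over its coding sequence and 44.2% in the bases shown, and Atp5d (chromosome 10) has 61.7% and 71.7%.
Uqcrb: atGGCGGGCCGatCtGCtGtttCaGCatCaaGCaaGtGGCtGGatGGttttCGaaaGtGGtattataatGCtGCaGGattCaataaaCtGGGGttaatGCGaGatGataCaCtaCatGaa
Atp5d: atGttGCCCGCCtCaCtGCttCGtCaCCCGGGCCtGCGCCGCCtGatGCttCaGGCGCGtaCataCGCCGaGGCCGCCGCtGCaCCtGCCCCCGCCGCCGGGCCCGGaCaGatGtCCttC
Uqcrb, a small subunit of complex III, had 8271, 10922 and 2939 units in KO and 11831, 12536 and 1845 in wild-type atria. Atp5d, the delta subunit of the ATP synthase, had 532, 546 and 1794 in KO and 388, 472 and 1178 in wild-type atria. Replicate 3 was lowest for Uqcrb and highest for Atp5d in both genotypes.

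**Figure D4:**
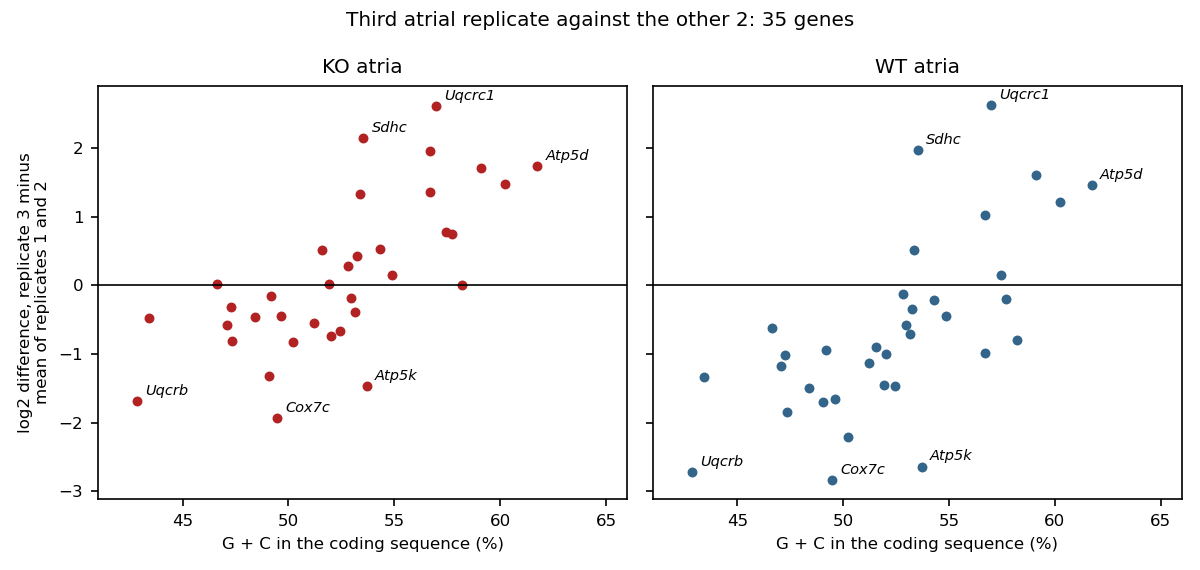
Log2 difference of atrial replicate 3 from the mean of atrial replicates 1 and 2 against the GC content of the coding sequence (percent), one point per member, KO left and wild-type right. The points rise with GC content in both genotypes (Pearson r 0.70 in KO and 0.68 in wild-type).

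From E13.5 hearts to P3 ventricles the members were higher throughout, in both genotypes. In wild-type animals all 35 genes, against 49.9% of all genes, had a positive log2 fold change (P3 ventricles over E13.5), from 0.21 to 1.51 with a median of 1.05, and 15 of them rose at an adjusted p below 0.05 (limma), against 3.35% of all genes. In KO animals all 35 were positive as well, against 48.8% of all genes, from 0.34 to 1.15 with a median of 0.88, and 7 rose, against 1.79% of all genes. The P3 libraries lay above all E13.5 libraries for 32 genes in KO (8.94% of all genes) and for 33 in wild-type animals (10.3%). The exceptions were Sdhb, Sdhc and Atp5g2 in KO and Sdhc and Atp5g2 in wild-type animals. All 7 genes that rose in KO ventricles were among the 15 that rose in wild-type ventricles (7 of 7 and 7 of 15). The E13.5 libraries are whole hearts and the P3 libraries dissected ventricles, so stage, dissection and preparation year cannot be told apart. In this comparison, rose means higher in P3 ventricles than in E13.5 whole hearts.

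In complex II, Sdha and Sdhd rose in both genotypes. Sdha had 7584, 6926 and 8700 units in KO ventricles, against 3515, 3213, 3223 and 4401 in KO E13.5 hearts, a log2 fold change of 1.11 (SE 0.27, adjusted p = 0.0240, limma). In wild-type animals it had 9055, 10932 and 11015 in ventricles, against 3437, 4596, 3347 and 3379 at E13.5, a log2 fold change of 1.49 (SE 0.27, adjusted p = 0.00162, limma). P3 ventricles and E13.5 whole hearts did not overlap in either genotype. Sdhd had log2 fold changes of 1.04 in KO and 0.97 in wild-type animals (adjusted p = 0.0403 and 0.0408, limma).

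In complex III, Uqcrfs1 had 3187, 3427 and 4398 units in KO ventricles, against 1815, 1453, 1722 and 1885 in KO E13.5 hearts. In wild-type animals it had 4634, 5710 and 5814 in ventricles, against 1513, 2196, 1896 and 2307 at E13.5. The log2 fold changes were 1.09 in KO and 1.46 in wild-type animals (adjusted p = 0.00818 and 0.000387, limma), and the stages did not overlap. Uqcrq, a small subunit of the complex, rose by 0.99 in KO and 1.29 in wild-type animals (adjusted p = 0.0195 and 0.00158, limma). Uqcrc2 rose by 1.12 in wild-type animals (adjusted p = 0.00490, limma).

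In complex IV, Cox5a had 6106, 6701 and 8400 units in KO ventricles, against 2642, 3708, 2821 and 3559 in KO E13.5 hearts. In wild-type animals it had 7709, 8045 and 12704 in ventricles, against 2785, 3518, 3482 and 3228 at E13.5. The P3 libraries were all higher, and the log2 fold changes were 1.15 in KO (adjusted p = 0.0520) and 1.51 in wild-type animals (adjusted p = 0.00561, limma). Cox5b rose by 0.86 in KO and 1.06 in wild-type animals, and Cox6b1, which lies between the monomers of the complex IV dimer, by 0.91 in KO and 0.98 in wild-type animals.

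In complex V, Atp5a1 had 11995, 12739 and 16187 units in KO ventricles, against 6846, 6651, 7744 and 8100 in KO E13.5 hearts, and rose by 0.89 (log2; adjusted p = 0.0426, limma). In wild-type animals Atp5a1 had 15645, 15769 and 20751 units in ventricles, against 9985, 8770, 8387 and 7936 at E13.5, and rose by 0.98 (adjusted p = 0.0149). The stages were apart in each genotype. The other members of the complex that rose in wild-type animals did so, on the log2 scale, by 1.33 for the c-subunit gene Atp5g1, 1.15 for the gamma subunit Atp5c1, 1.15 for the stalk subunit Atp5f1, 1.11 for Atp5h, 1.06 for Atp5b and 1.00 for Atp5o, the oligomycin sensitivity-conferring protein. Atpif1 had 9216, 7401 and 8754 in KO ventricles and 8831, 8450 and 7550 in wild-type ventricles, against 6358, 6399, 7083 and 6771 in KO and 6244, 7374, 7525 and 7479 in wild-type E13.5 hearts. Its log2 fold changes, 0.34 in KO and 0.21 in wild-type animals, were the smallest of the 35 in both genotypes.

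**Figure D5:**
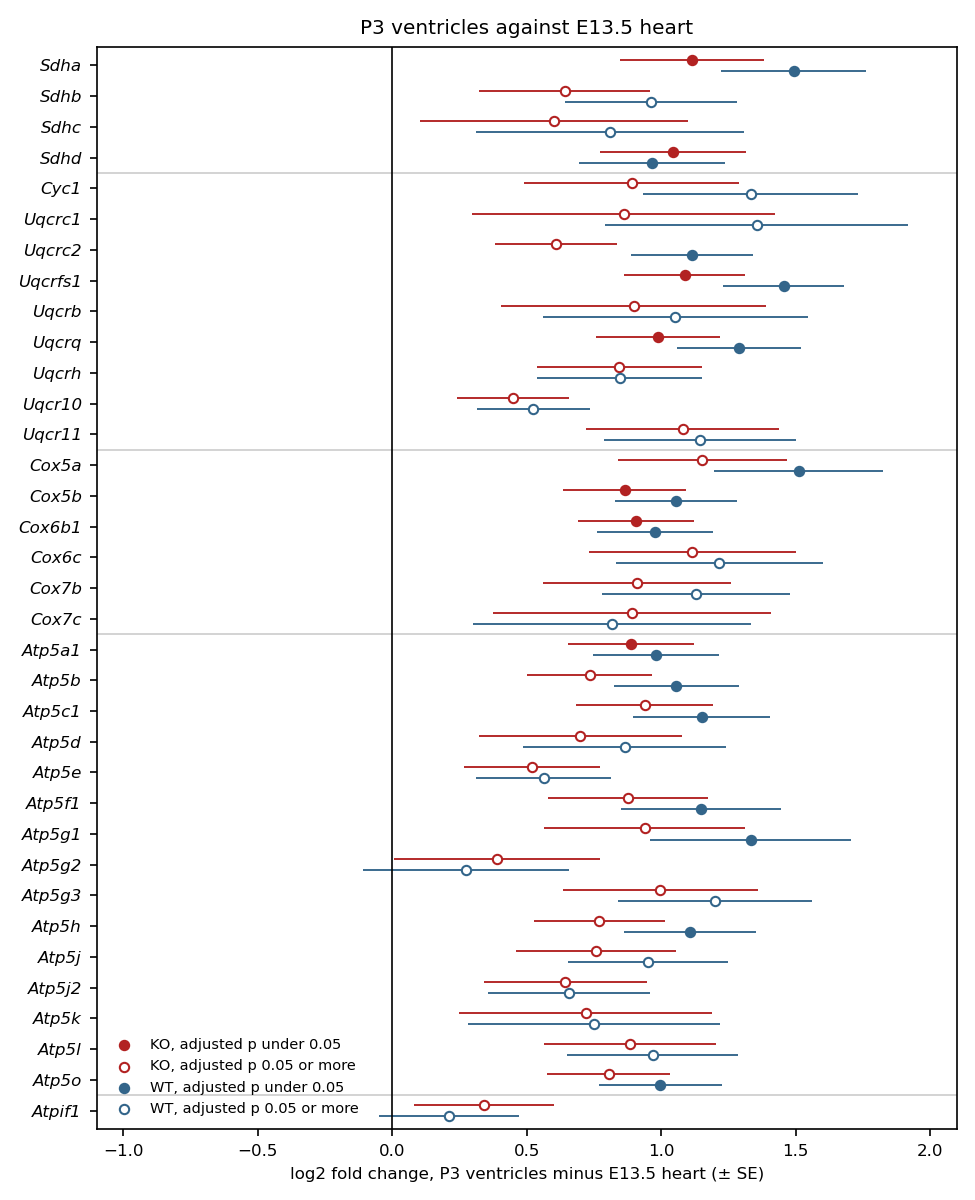
Log2 fold change between P3 ventricles and E13.5 hearts for each of the 35 genes, KO and wild-type, ordered by complex, with standard errors. All values are above 0, with medians of 0.88 in KO and 1.05 in wild-type animals, and Atpif1 lies lowest in both.

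The median of this difference was positive in all alternative settings tried, but the number of genes past the threshold varied. Shares over all genes are given only for the main fit and the setting without both atrial libraries of replicate 3. The count for KO animals ran from 0 (without KO ventricles replicate 3) to 19 (without wild-type atria replicate 3), and that for wild-type animals from 7 (without wild-type ventricles replicate 3) to 24 (without wild-type atria replicate 3). In KO animals it was 1 without KO E13.5 replicate 1 or 2 or KO ventricles replicate 1, 3 without KO E13.5 replicate 3 or KO ventricles replicate 2, 4 without wild-type E13.5 replicate 4 or wild-type ventricles replicate 1, and 12 without KO atria replicate 3. Without both atrial libraries of replicate 3, 29 members rose in KO (3.81% of all genes) and 32 in wild-type animals (5.37%). Of the 4 E13.5 hearts in each genotype, 3 were prepared in 2016 and 1 in 2018, the year of all P3 samples. With that 1 heart of 2018 alone as the E13.5 group the medians were 0.72 in KO and 1.02 in wild-type animals. No member passed in this setting, which has 1 E13.5 library per genotype and takes its spread from the other groups.

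Some genes of neighbouring pathways also rose from E13.5 hearts to P3 ventricles, where 1.79% of all genes rose in KO and 3.35% in wild-type animals. Of 36 nuclear genes of complex I, 12 rose in KO and 22 in wild-type animals, among them Ndufv1, which binds the NADH-oxidizing flavin (1.49 in KO and 1.45 in wild-type animals, log2), and Ndufb10 (1.85 in wild-type animals). Of 11 isoform and other subunits of complex IV, 4 rose in KO and 5 in wild-type animals, led by the striated-muscle isoforms Cox8b (3.25 in KO and 3.78 in wild-type animals), Cox6a2 (1.53 in KO and 1.88 in wild-type animals) and Cox7a1 (1.41 in KO and 1.73 in wild-type animals). Of 14 genes of the tricarboxylic acid cycle, 2 rose in KO, Mdh2 (1.08) and Idh3b (0.93), and 9 in wild-type animals, among them Ogdh (1.69) and Sucla2 (1.54). Of 7 genes of carriers, porins and mitochondrial creatine kinase, 2 rose in KO and 5 in wild-type animals. They were led by the creatine kinase gene Ckmt2 (4.48 in KO and 6.02 in wild-type animals) and the ADP/ATP carrier Slc25a4 (1.39 in KO and 1.72 in wild-type animals).

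No gene passed in KO animals in the other lists of mitochondrial energy metabolism. In wild-type animals, 5 of 11 genes of cytochrome c and coenzyme Q synthesis rose, led by Coq8a (3.53), and 2 of 13 mitochondrially encoded subunits, mt-Co1 (2.15) and mt-Co3 (1.89). Of 34 assembly factors Cox17 (1.02) and Lrpprc (0.89) rose and Coa4 fell by 1.59 in wild-type animals. Of 15 regulators Ppargc1b (1.67), a coactivator of mitochondrial genes, rose in wild-type animals, and of 12 genes of mitochondrial import, structure and nucleoids the cristae gene Immt (0.94). The 12 cardiomyocyte markers were higher as well: 5 rose in KO and 6 in wild-type animals, and their sum was 283803 to 332700 in KO and 291018 to 342970 in wild-type ventricles, against 130245 to 170437 in KO and 144164 to 171207 in wild-type E13.5 hearts. Of 9 erythroid markers, 2 fell in KO and 5 in wild-type animals, with sums of 17653 to 30961 in KO and 10362 to 25487 in wild-type ventricles, against 47242 to 245176 in KO and 60746 to 234059 in wild-type E13.5 hearts. The share of all genes that fell is not given for this comparison. How far cell composition contributes to the stage difference of the members was not tested.

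P3 ventricles also had more of these transcripts than the atria of the same pups. In KO pups 32 of the 35 genes were positive (46.8% of all genes), with a median log2 difference of 0.73 (ventricles over atria), and in wild-type pups all 35 (47.9%), with a median of 1.11. None passed the limma test with pup as a block, against 0.0772% of all genes higher in KO and 0% in wild-type pups. At an unadjusted p below 0.05, 5 members were higher in KO and 27 in wild-type pups, against 4.12% of all genes in KO and 4.24% in wild-type pups. Ventricles lay above all atria of their genotype for 25 genes in KO (8.08% of all genes) and 28 in wild-type animals (7.80%). By pup, ventricles were higher for 35, 35 and 27 genes in KO and for 34, 35 and 31 genes in wild-type animals. The median log2 differences by pup were 0.77, 0.51 and 0.93 in KO and 1.01, 0.67 and 1.74 in wild-type animals. Pup 2 had the smallest median in both genotypes, and its wild-type atrial library was the one that carried Myl2. The part of Myl2-bearing tissue in the wild-type difference was not tested.

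Sdha had 7584, 6926 and 8700 units in KO ventricles, against 3206, 3054 and 2132 in the atria of the same pups, a log2 difference of 1.48 (SE 0.39, unadjusted p = 0.00474, adjusted p = 0.266, limma). In wild-type pups it had 9055, 10932 and 11015 in ventricles, against 4508, 4579 and 2082 in atria, a log2 difference of 1.55 (SE 0.39, unadjusted p = 0.00363, adjusted p = 0.232, limma). The chambers were apart in both genotypes. Uqcrc2 had 3471, 3270 and 3817 in KO ventricles against 1877, 2053 and 1991 in KO atria, and 4247, 4427 and 4989 in wild-type ventricles against 1888, 2073 and 1286 in wild-type atria. It had the smallest p of the members in wild-type pups (log2 difference 1.41, unadjusted p = 0.00159, adjusted p = 0.187, limma) and differed by 0.83 in KO pups.

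Without both pups of replicate 3, all 35 genes were positive in both genotypes, with medians of 0.67 in KO and 0.84 in wild-type pups, and 27 in KO and 32 in wild-type pups had an unadjusted p below 0.05, against 6.49% of all genes in KO and 6.28% in wild-type pups. With no pup block, 1 gene passed in KO and 15 in wild-type animals. The share of all genes that passed in that setting is not given here. With all pups, including those of replicate 3, the chamber difference over the 35 genes correlated with coding GC content. The r was -0.59 in KO and -0.61 in wild-type pups. For the stage difference of the ventricles, whose means hold no atrial library, it was -0.01 in KO and -0.02 in wild-type animals. The correlation without the pups of replicate 3 was not computed, and the part of their atrial libraries in it was not tested.

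Between P3 atria and E13.5 hearts the median difference of these genes was small. The median log2 fold change (P3 atria over E13.5) was 0.11 in KO, with 21 genes positive (51.9% of all genes), and -0.10 in wild-type animals, with 12 positive (53.9%). The wild-type sign turned on 1 library: without wild-type atria replicate 3 the median was 0.16, and without both atrial libraries of replicate 3 it was 0.16 with 22 genes positive. It was -0.28 without wild-type atria replicate 2, -0.19 without wild-type atria replicate 1 and -0.17 without wild-type E13.5 replicate 1. In KO animals the median was 0.0075 without KO E13.5 replicate 2, 0.18 without KO E13.5 replicate 3 and 0.17 without KO atria replicate 2. In KO animals none passed (1.95% of all genes higher and 0.855% lower), and the single member with an unadjusted p below 0.05 was Atp5d at 0.83 (unadjusted p = 0.0395, limma; 8.99% of all genes higher). In wild-type animals Atpif1 fell by 0.89 on the log2 scale (SE 0.26, adjusted p = 0.0478, limma), 1 gene against 2.39% of all genes lower. It had 5046, 4665 and 2432 units in wild-type atria, against 6244, 7374, 7525 and 7479 in wild-type E13.5 hearts, without overlap. This call was kept in 6 of 30 alternative settings, with adjusted p from 0.0203 to 0.588 over them. Without both atrial libraries of replicate 3 the log2 fold change of Atpif1 was -0.56 (adjusted p = 0.0203). In KO animals Atpif1 had a log2 fold change of -0.34.

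The KO difference itself was compared between tissues and stages. The KO log2 fold change in ventricles minus that in atria was negative for all 35 genes (51.2% of all genes; median -0.39), and for 30 without both pups of replicate 3 (median -0.20). The median was -0.16 without wild-type pup 3 and -0.59 without wild-type pup 2. The KO log2 fold change in ventricles minus that at E13.5 was negative for 31 genes (51.4% of all genes; median -0.19), with a median of -0.08 without KO ventricles replicate 2. The KO log2 fold change in atria minus that at E13.5 was positive for 30 genes (49.5% of all genes; median 0.23), and its median was -0.05 without both atrial libraries of replicate 3, -0.03 without wild-type atria replicate 3, 0.36 without wild-type atria replicate 2 and 0.13 without KO E13.5 replicate 2. No member passed the test of any of these 3 differences (limma, lowest unadjusted p 0.151 for ventricles against atria, Atp5e), against 0%, 0% and 0.00552% of all genes, so a KO difference particular to ventricles was not shown.

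The shares of the 3 c-subunit genes in their summed signal were compared between KO and wild-type by an exact permutation test. At these group sizes no difference could pass it after adjustment, so it cannot decide whether the shares differ. Atp5g3 took 70.9% ± 2.80 in KO and 73.1% ± 1.86 in wild-type E13.5 hearts (SD, n = 4 each), and 72.2% ± 3.09 in KO and 72.1% ± 4.73 in wild-type ventricles (SD, n = 3 each). Atp5g1 took 26.9% ± 3.00 in KO and 24.5% ± 1.35 in wild-type E13.5 hearts, and 26.3% ± 2.97 in KO and 26.7% ± 4.71 in wild-type ventricles. Atp5g2 took 2.23% ± 0.739 in KO and 2.49% ± 0.591 in wild-type E13.5 hearts, and 1.45% ± 0.267 in KO and 1.26% ± 0.0527 in wild-type ventricles. The 9 exact two-sided permutation tests gave p of 0.171 or more, all 1 after Benjamini-Hochberg adjustment, where 0.1 is the smallest p that 3 against 3 libraries allow and 0.0286 that 4 against 4 allow. The shares are not divided by gene length.

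In atria the shares in replicate 3 differed from those in the other libraries. Atp5g1 had 2790, 2048 and 9323 units in KO and 2421, 3135 and 5602 in wild-type atria, and Atp5g3 had 7086, 7589 and 2924 in KO and 6930, 8474 and 2348 in wild-type atria. The share of Atp5g1 was 40.6% ± 28.5 in KO and 40.4% ± 25.2 in wild-type atria (SD, n = 3 each). In P3 ventricles Atp5g1 had 5171, 3809 and 5314 units in KO and 6776, 5412 and 6351 in wild-type libraries, Atp5g3 had 12034, 11999 and 15116 in KO and 14066, 17164 and 19541 in wild-type libraries, and Atp5g2 had 258, 186 and 353 in KO and 274, 296 and 315 in wild-type libraries. Atp5g1 did not overlap between the genotypes there, while Atp5g2 and Atp5g3 did.

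Some members share sequence with other annotated genes. For Uqcrh, Atp5l, Atp5k and Atp5c1, the pseudogene rows examined held at most 0.565% of the signal of their parent gene, reached by Atp5l2-ps beside Atp5l. Pseudogenes of the other members were not examined. Several members overlap another gene on the opposite strand in the GENCODE annotation, such as Atp5j with Gabpa, Atp5f1 with Wdr77, Cox6c with Vps13b and Atp5a1 with Haus1. Whether the counting used strand is not given in the sources used here, so reads of such partners may be included.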

How the data were processed

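RNA-seq of 20 heart libraries was deposited by the authors as 1 table of normalized signal values on a linear scale, 1 row per gene. Per the labels' protocols RNA was extracted with a Qiagen kit and libraries followed SMART-Seq2. Build mm10 and the tools STAR 2.5.1, bcl2fastq 2.2 and DESeq2 appear in the submitters' processing notes, with no role stated. No source used here gives the counting tool, the annotation or the strandedness. The values carry a common scale: the median ratio to the gene-wise geometric mean was 1.04 in every library. Of values up to 100 reads, 45.1% to 64.6% per library lay within 0.001 reads of a whole multiple of 1 read (99.7% to 99.8% among pseudogene, TEC, snoRNA and miRNA rows), which is not nearly all genes, so no count test was run.

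Values were tested as log2(value + 1) with limma 3.58.1 (R 4.3.3; empirical Bayes, Benjamini-Hochberg adjustment over all 18125 genes with at least 10 units in at least 3 libraries, threshold 0.05). One fit over the 6 groups (14 residual degrees of freedom) gave KO and stage comparisons, and a fit with pup as block (4) gave ventricles against atria. Because the atrial replicate 3 libraries enter the shared spread, they bear on all counts of genes past the threshold. Shares of the c-subunit genes were compared by exact permutation. The fits were checked on simulated data, with normal noise drawn independently for each gene. The simulation held no shift like that of the atrial replicate 3 libraries, so it does not bear on their effect. Python 3.11.15, numpy 2.4.6, pandas 2.3.3 and matplotlib 3.10.9 were used for the rest.

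KO and wild-type animals of the same replicate number are littermates per the labels and so paired; at E13.5, replicates 2 and 3 share a litter. The deviations of same-numbered libraries from their group means correlated at 0.212 to 0.638 in atria, 0.0200 to 0.0658 in ventricles and -0.0159 to 0.0159 at E13.5. Named were the members past the threshold, at most 4 per direction and complex, otherwise the 5 of smallest p, and always the c-subunit genes and Atpif1; of each pathway list, at most 3 genes per direction. One gene that this rule names is not reported here. The members and lists were chosen with earlier results of these data known. The setting without both atrial libraries of replicate 3 was chosen after seeing the data. Where nothing else is stated, errors are SD between animals.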

Additional observations from a re-analysis of the deposited data

Results flagged for a closer look

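Of 70 combinations of a member and an E13.5 genotype group of 4 hearts, 6 held 1 library set apart from the other 3 by Dixon's criterion, and chance alone gives about 1 in 20. KO replicate 4 had 4760 units of the hinge protein gene Uqcrh, where the other KO hearts had 4069 to 4179. KO replicate 2 had 6209 units of the c-subunit gene Atp5g3, where the others had 6582 to 6615. KO replicate 1 had 5774 units of Atp5k, where the others had 8004 to 8453. Among wild-type hearts, replicate 2 had 4596 units of Sdha, where the others had 3347 to 3437. Wild-type replicate 4 had 2874 units of Uqcrq, where the others had 2012 to 2091. Wild-type replicate 1 had 6244 units of the inhibitor gene Atpif1, where the others had 7374 to 7525. Each of the 6 lay in a different library. Groups of 3 were not examined in this way.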

How the results depend on the processing

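The direction of the KO difference in ventricles and of the difference between P3 ventricles and E13.5 hearts was kept by the median of the 35 genes in all settings tried (another pseudocount, no filter, other scalings, library weights, a sex covariate, leaving out libraries). The number of members higher in P3 ventricles than at E13.5, given here without the share over all genes, depended on the settings. In KO animals it was 3 after quantile normalization, 21 with array weights, 4 with log2 Xist as covariate, 23 with the groups fitted alone, 0 with E13.5 libraries of 2018 only (1 per genotype), 29 without both atrial libraries of replicate 3, and 0 to 19 leaving out 1 library. In wild-type animals it was 28 with array weights, 31 fitted alone, 0 with E13.5 libraries of 2018 only, 32 without that pair and 7 to 24 leaving out 1 library. Atpif1, lower in wild-type atria than at E13.5, was no longer called (0 members) with a pseudocount of 10, no filter, quantile normalization, array weights, the Xist covariate, without wild-type pup 2, fitted alone or with 2018 libraries only, and 0 to 1 members were called leaving out 1 library. The median of the 35 genes in that comparison was 0.18 after quantile normalization, 0.16 without the third pair and -0.28 to 0.16 leaving out 1 library. The median KO difference was -0.13 to -0.04 at E13.5 leaving out 1 library, and that in ventricles minus E13.5 -0.27 to -0.08. With no pup block, 1 member was called higher in ventricles than in atria in KO and 15 in wild-type pups, again without the share over all genes. The median of ventricles over atria was 0.39 after quantile normalization in KO pups; in wild-type pups it was 0.67 after it, 1.43 with the Xist covariate, 0.84 without the third pair and 0.84 to 1.35 leaving out 1 pup. The median KO difference in atria was -0.11 without the third pair and -0.15 to 0.32 leaving out 1 library; minus that at E13.5 it was -0.049 without the third pair. The KO difference in ventricles minus that in atria had a median of -0.68 with the Xist covariate. The cause was not tested in any of these. With the replicate block, which pairs littermates, the median KO difference was -0.23 in ventricles, 0.15 in atria and -0.06 at E13.5, and the block changed no call of a member (0 called in each). The lowest value of a member rested on 84 estimated reads.

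Over all 35 members, 8 to 29 were higher in KO than in wild-type atria, depending on the setting. Among the members named by the rule alone, log2 values changed sign in 51 combinations of a gene, a comparison and a setting. For KO over wild-type atria, Atp5g1 was -0.028 after quantile normalization, -0.0033 with array weights, -0.20 without the third pair and -0.55 to 0.55 leaving out 1 library; Atp5g3 was -0.036 after quantile normalization, -0.019 with the Xist covariate, -0.064 without the pair and -0.51 to 0.51 leaving out 1 library; Atp5g2 was -0.048 with array weights and -0.27 without the pair; Atp5k was -0.35 to 1.06 leaving out 1 library. Leaving out 1 library, KO over wild-type was -0.072 to 0.12 for Atp5g1 at E13.5, and -0.42 to 0.035 for Atp5g2 and -0.037 to 0.12 for Atpif1 in ventricles. For P3 atria over E13.5, Atp5g3 in wild-type animals was 0.070 without the pair and -0.86 to 0.070 leaving out 1 library. In KO animals Atp5g3 was 0.037 with array weights, 0.17 without the pair and -0.51 to 0.17 leaving out 1, Atp5g1 -0.040 without the pair and -0.040 to 1.05 leaving out 1, and Atp5g2 -0.059 without the pair and -0.059 to 0.70 leaving out 1. For ventricles over atria in KO pups, Atp5g1 was -0.026 after quantile normalization, and Atp5g2 0.045 after upper-quartile rescaling, 0.13 with array weights, 0.017 with the Xist covariate, 0.22 without the pair and -0.16 to 0.22 leaving out 1 pup. For the KO difference in ventricles minus that in atria, leaving out 1 pup gave -0.81 to 0.075 for Atp5g1 and -0.99 to 0.25 for Atp5g3; in ventricles minus E13.5, Atp5g2 was -0.11 to 0.35. For the KO difference in atria minus that at E13.5, Atp5g1 was -0.049 after quantile normalization, -0.033 with array weights, -0.21 without the pair and -0.56 to 0.54 leaving out 1 library, Atp5g3 -0.34 to 0.67 and Atp5k -0.14 to 1.27.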
